A study of Mus musculus with 8 samples.

Results

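The genes examined here encode the machinery of heterotrimeric G protein and cyclic AMP (cAMP) signalling. Members were picked by gene symbol, but this group of genes was itself chosen with earlier results of these data known. At the membrane the symbols cover G protein alpha, beta and gamma subunits, regulators of G protein signalling (RGS), G protein-coupled receptor kinases and beta-arrestins. Further down they cover adenylyl cyclases, phosphodiesterases, protein kinase A (PKA), A-kinase anchoring proteins (AKAP), Rapgef exchange factors, CREB family factors and their Crtc coactivators. This gave 64 rows with 63 symbols, of 12193 genes in the tables, and Pde2a has 2 rows. Of the 64, 61 reached 1 FPKM (fragments per kilobase of transcript, scaled to sequencing depth) in at least 2 of the 8 libraries and were tested. The other 3 were Gnal, Gng13 and the second row of Pde2a, all near 0. Crem, the cAMP-inducible member of the CREB family, was not analysed here.

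RNA was sequenced from AtT-20 cells, a mouse pituitary tumour line of the corticotrope type, which makes the adrenocorticotropin precursor Pomc. The study asked how the epidermal growth factor (EGF) receptor alters transcription in these cells. There were 4 groups of 2 libraries each: the Neo control line with water, the EGFR line with water, the EGFR line with EGF for 3 h and the EGFR line with EGF for 18 h. Both water groups carry a 3 h label, so the 18 h samples have no water control of their own time, and no Neo library received EGF. All groups were grown in medium with serum. The labels do not say whether either line is 1 clone or a pool, or which species the receptor came from. Nor do they say whether the replicates were separate cultures, so the p-values reflect nothing beyond the scatter of these libraries, which may be technical. Libraries are called Neo 1 and 2, water 1 and 2 (both EGFR line), 3 h 1 and 2, and 18 h 1 and 2.

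In this pathway a hormone receptor makes a G alpha subunit bind GTP and part from its beta and gamma partners. The Gs alpha subunit, a product of Gnas, stimulates adenylyl cyclase to make cAMP, Gi family subunits inhibit it, and Gq family subunits act on phospholipase C instead. RGS proteins speed GTP hydrolysis and end the signal, phosphodiesterases break cAMP down, and cAMP frees the catalytic subunits of PKA from its regulatory subunits so that they can phosphorylate CREB. In corticotropes, corticotropin-releasing hormone raises Pomc transcription and adrenocorticotropin release through Gs, cAMP and PKA, and somatostatin opposes it through Gi.

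Summed FPKM ran from 683834 to 808072 per library, and 29.1% to 39.0% of it lay in 648 genes for small RNAs, with the 2 highest shares in the Neo libraries. Depth was estimated at 54.3 to 63.4 M fragments per library, as a median over 13 to 23 low values of single-transcript genes. Each value was taken to be 1 fragment and had to lie in a preset window. That window bounds the result, so the estimate is rough. Replicates correlated at 0.985 to 0.987 across genes on the log2 scale. Egfr itself was at 0.227 and 0.0663 FPKM in the Neo libraries and at 25.9 to 31.9 FPKM in the 6 EGFR libraries, as their labels say. Of 7 corticotrope markers 5 had values, led by Pomc at 6981 to 8930 FPKM. Those without values were Crhr1, the receptor for corticotropin-releasing hormone, and the vasopressin receptor Avpr1b, so their expression is not known here. Of 9 markers of other pituitary lineages only Gata2 had values, and none of 5 fibroblast, 4 endothelial and 5 blood markers did. Gene positions follow mm10, and 54 of the 64 rows match GENCODE M21 genes exactly.

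The pathway was expressed over a wide range, from 2.21 FPKM for Rgs4 to 1422 FPKM for Gnas among the 61 tested genes (means of 8 libraries), and 46 of them averaged at least 10 FPKM. Gnas supplied 84.4% ± 0.523 (SD, n = 2) of the summed G alpha FPKM in Neo and 82.6% ± 0.112 in the EGFR line in water. With EGF it supplied 81.3% ± 0.0707 after 3 h and 78.7% ± 0.551 after 18 h. Its row covers several start sites and is not split by transcript, so the part that encodes Gs alpha is not known. The leading genes of the other classes were Gnb2 among beta subunits at 298 FPKM, Gng5 among gamma subunits at 73.3 FPKM, Rgs9 among RGS proteins at 29.5 FPKM and Adrbk1, the receptor kinase GRK2, at 57.6 FPKM. Downstream of the G proteins, Adcy9 led the adenylyl cyclases at 22.04 FPKM, Pde7a the phosphodiesterases at 38.5 FPKM and the type I regulatory subunit Prkar1a the PKA genes at 282 FPKM. Akap1, a mitochondrial anchor for PKA, led the AKAP genes at 37.8 FPKM, Rapgef4, the cAMP-activated exchange factor EPAC2, led the Rapgef genes at 31.6 FPKM, and Creb3, a factor anchored in the endoplasmic reticulum membrane, led the CREB class at 45.7 FPKM. These are means of 8 libraries, and the order was not the same in every group: at 18 h Gng2 led the gamma genes at 75.2 FPKM with Gng5 at 63.9 FPKM, and at 3 h Rapgef1 stood at 30.96 FPKM with Rapgef4 at 28.8 FPKM. FPKM is per transcript length, but the program behind these values is not named, and some genes share reads with overlapping genes or copies. Of the gamma genes, Gng10 shares 71.99% of its exonic bases with another gene, and 19.6% of the Gng5 transcript lies in copies. The order of genes at close levels is therefore uncertain. Most members moved little across the 4 groups: the highest group mean was at least 1.5 times the lowest for 10 of 61 genes, with a median ratio of 1.204 and a span from 1.03 for Akap1 to 4.29 for Rgs4.

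Each comparison below is a limma fit of log2(FPKM + 1) over all 10874 genes that passed the filter, and a gene was called at a Benjamini-Hochberg adjusted p below 0.05 over all of them. Fold changes on this scale understate the change of genes near 1 FPKM. Every fit was repeated under 17 alternatives of scaling, filter, pseudocount, model and left-out library. Rgs4, Pde4d and Adcy6 did not reach 5 FPKM and so were not tested under the filter at 5 FPKM. Pde2a passed that filter through its 18 h libraries alone. The 3 h and 18 h comparisons use the same 2 water libraries, so their values are given side by side and no agreement between them is counted. In bulk RNA, a change in every cell and a change in the share of cells that express a gene cannot be told apart.

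Between the 2 lines in water, almost none of these genes passed. Gna15, an alpha subunit of the Gq family, was the 1 called higher in the EGFR line (1.639% of 61, against 3.11% of all tested genes), and Pde6d was the 1 called lower (1.639%, against 2.90%). The median log2 fold change was 0.01 over the members and 0.01 over all tested genes. Gna15 stood at 21.6 and 20.95 FPKM in Neo and at 25.7 and 25.5 FPKM in the water-treated EGFR line (log2 fold change 0.26 ± 0.05 SE, adjusted p = 0.0318). Pde6d, which despite its name is a carrier of prenylated proteins, stood at 15.8 and 14.6 FPKM in Neo and at 11.4 and 12.2 FPKM in the EGFR line (log2 fold change −0.33 ± 0.05 SE, adjusted p = 0.0142). Neither pair of groups overlapped, but both calls depended on which libraries were in the fit. Gna15 lost its call without Neo 1 or 2, water 1 or 2 or 18 h 1 or 2 and with no filter or the replicate block (adjusted p = 0.05498 to 0.1596). Pde6d lost its call without Neo 1 or water 1 and with a fit of the 2 groups alone (adjusted p = 0.0654 to 0.104). Gnas was at 1663 and 1552 FPKM in Neo against 1432 and 1439.6 FPKM in the EGFR line and did not pass after adjustment (log2 fold change −0.16, 95% interval −0.28 to −0.05, adjusted p = 0.0965). Prkaca (log2 fold change −0.06, 95% interval −0.15 to 0.03, adjusted p = 0.377), Prkar1a (log2 fold change −0.11, 95% interval −0.22 to 0.01, adjusted p = 0.2103) and Creb1 (log2 fold change 0.05, 95% interval −0.04 to 0.14, adjusted p = 0.479) did not pass either. The share of FPKM in small RNA genes differed between these lines (33.2% and 39.0% in Neo, 30.9% and 31.9% in the EGFR line in water). With protein-coding genes only, 1 member was called higher and 3 lower, with Gnas and Gnb2 joining Pde6d. In that fit 5.34% of all tested genes were higher and 6.61% lower. Of all calls between the lines 51.8% were higher, and 75% with a common summed FPKM, under which the members still gave 1 and 1.

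Many more of them passed after EGF. After 3 h, 14 of the 61 genes were higher than in water (22.95%, against 11.8% of all tested genes) and 10 were lower (16.4%, against 19.7%), with a median log2 fold change of 0.02 over the members and −0.04 over all genes. After 18 h, 20 were higher (32.8%, against 13.2% of all tested genes) and 11 lower (18.03%, against 18.7%), with medians of 0.07 and −0.03. Since the water libraries carry a 3 h label, EGF and longer culture cannot be told apart in the 18 h values. The class with the largest rises was the RGS proteins, and the largest fall was that of the phosphodiesterase Pde1c at 18 h. The split of calls moved with the scaling. At 3 h it was 19 higher and 7 lower with median-ratio scaling, 14 and 1 with a common summed FPKM and 23 and 8 with protein-coding genes only, and at 18 h it was 24 and 11, 17 and 7, and 27 and 10. Over all tested genes the higher share of calls was 37.5% at 3 h (53.5%, 75.4% and 62.4% under those scalings) and 41.45% at 18 h (53.4%, 62.8% and 60.8%). Single libraries mattered too. Without water 1, water 2 or 3 h 1, fewer members were called at 3 h, and fewer of all tested genes as well. The same held at 18 h without water 1 or 18 h 1. Without water 2 or 18 h 2, fewer of all tested genes were called at 18 h too. Gnas, Gnb1 and Prkaca were among the members that lost their 18 h calls without either of these. The 3 h calls of Rgs2, Gna14, Atf1 and Akap11 held in all 17 alternatives. That of Rgs4 held in every alternative that tested it, which the filter at 5 FPKM did not. At 18 h, 17 calls held in every alternative that tested the gene: Rgs4, Rgs2, Gng2, Gnaz, Pde4b, Prkar1b, Prkar1a, Pde2a, Gna14, Adrbk2 and Gnaq higher, and Prkar2b, Rgs9, Adcy1, Gng4, Pde11a and Pde1c lower.

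**Figure D1:**
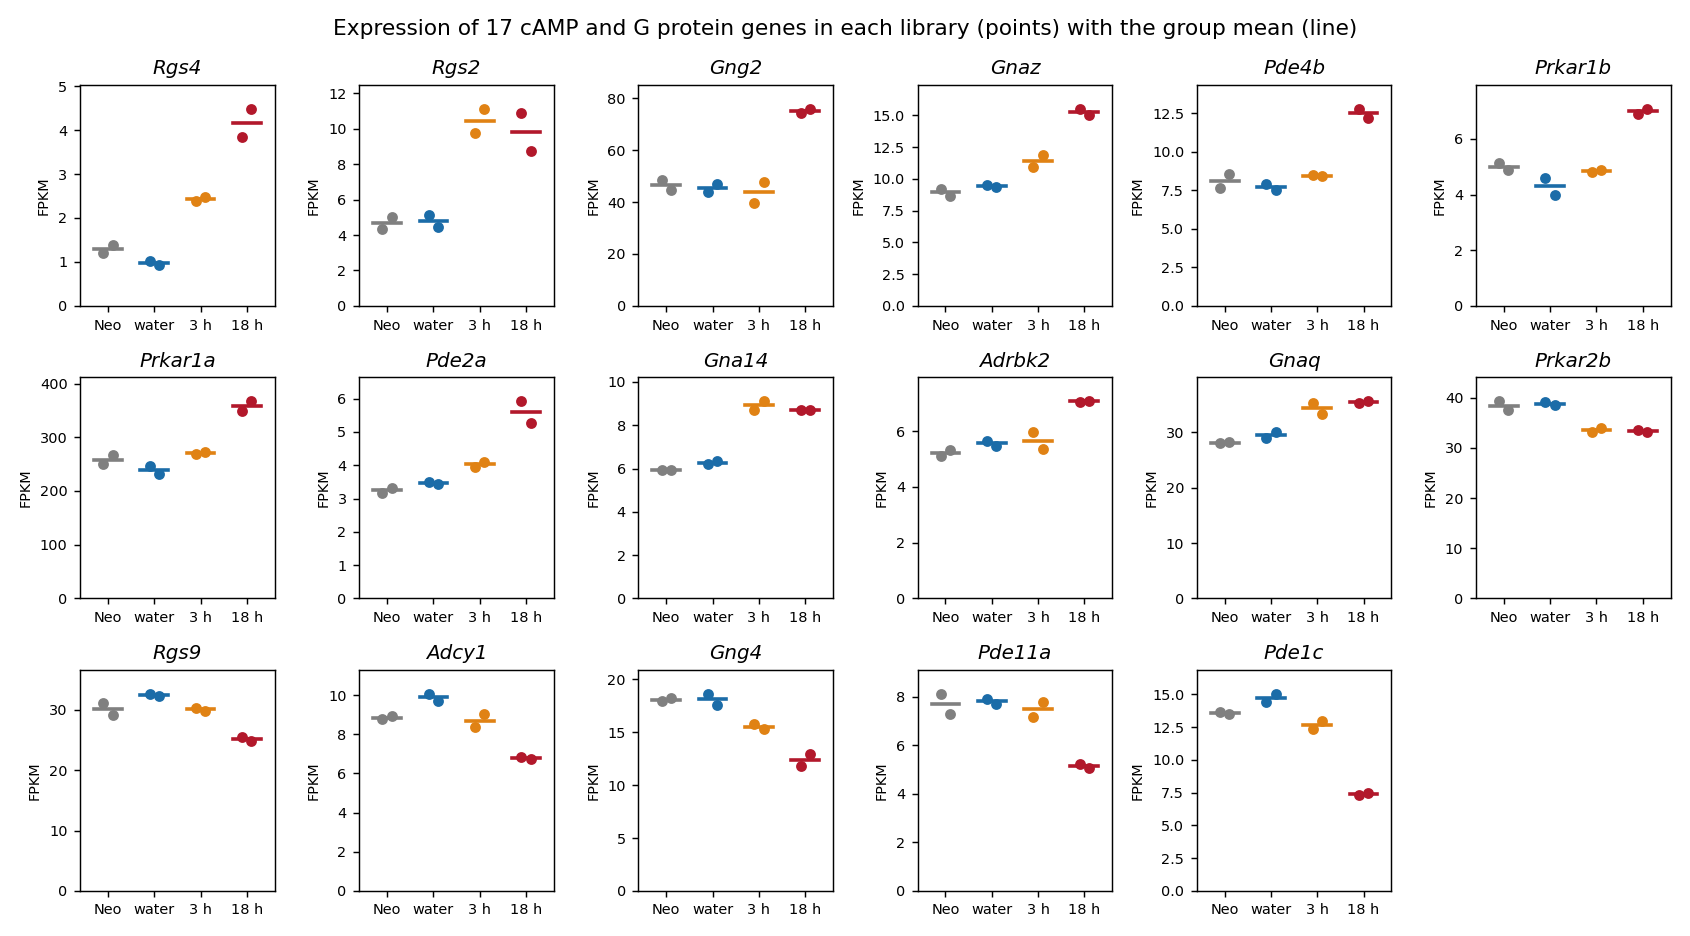
FPKM (linear axes from 0) of the 17 genes whose 18 h call held in every alternative that tested them, 1 panel per gene, with a point per library and a line at the mean of the 2 libraries for Neo water, EGFR water, EGF 3 h and EGF 18 h. All 17 alternatives tested these genes, except that Rgs4 did not reach the filter at 5 FPKM. Rgs2, Gna14 and Gnaq are already raised at 3 h, whereas the 18 h points of Gng2, Pde4b and Prkar1a stand above those of all other groups and the 18 h points of Pde1c, Pde11a and Adcy1 stand below them.

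RGS proteins, which switch G alpha subunits off, held the 2 largest rises. Rgs4, which acts on Gi and Gq family subunits (chr1:169741477-169747642, minus strand), measured 1.196 and 1.38 FPKM in Neo and 1.02 and 0.923 FPKM in water-treated EGFR cells. With EGF, Rgs4 measured 2.38 and 2.48 FPKM after 3 h and 3.85 and 4.49 FPKM after 18 h. No 2 groups of the EGFR line overlapped, and the 18 h mean was 4.29 times the water mean. Its log2 fold change was 0.80 ± 0.08 SE at 3 h (adjusted p = 0.000929) and 1.39 ± 0.08 SE at 18 h (adjusted p = 4.46e-05), and it rose further between 3 and 18 h (log2 fold change 0.59, adjusted p = 0.00279). Rgs2, best known as a brake on Gq (chr1:143999338-144004161, minus strand), measured 4.32 and 5.02 FPKM in Neo and 5.12 and 4.47 FPKM in water-treated EGFR cells. With EGF, Rgs2 measured 9.76 and 11.1 FPKM after 3 h and 10.9 and 8.76 FPKM after 18 h. All 4 EGF libraries exceeded all 4 water libraries, by 2.18 times in the means at 3 h (log2 fold change 0.98 ± 0.11 SE, adjusted p = 0.00142) and 2.05 times at 18 h (log2 fold change 0.90 ± 0.11 SE, adjusted p = 0.001297), and the EGF groups overlapped each other (log2 fold change −0.08, 95% interval −0.35 to 0.18, adjusted p = 0.604 for 18 h against 3 h). Rgs19, a Gi-directed member, rose less, from 7.53 ± 0.4797 FPKM (SD, n = 2) in water to 8.87 ± 0.574 FPKM at 3 h (log2 fold change 0.21, adjusted p = 0.0399). It reached 9.68 ± 0.358 FPKM at 18 h (log2 fold change 0.33, adjusted p = 0.00777). Rgs9, the most abundant of the class and a regulator of Gi family subunits, went the other way. It measured 31.1 and 29.1 FPKM in Neo and 32.7 and 32.3 FPKM in water-treated EGFR cells. With EGF, Rgs9 measured 30.3 and 29.9 FPKM after 3 h and 25.5 and 24.8 FPKM after 18 h, so that both 18 h libraries lay below all others (log2 fold change −0.36 ± 0.04 SE, adjusted p = 0.000682). The 3 h value did not pass (log2 fold change −0.11, 95% interval −0.20 to −0.01, adjusted p = 0.0778). Rgs19 lost its 3 h call without water 1 or 2, 3 h 1 or 2 or 18 h 1 or 2 and with no filter or a fit of the 2 groups alone (adjusted p = 0.0539 to 0.193). Rgs19 lost its 18 h call without water 1 (adjusted p = 0.0529).

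The upstream 250 bases of Rgs2 and Rgs4 are shown because these genes moved most, and that of Prkar1a, 1 of several windows of this gene, because it was the 1 member with a full cAMP response element (CRE, TGACGTCA), the site that CREB binds. Sequences come from the RefSeq promoter windows of build GRCm38.p6, in which 53 of the 63 symbols were found. Each runs 5′ to 3′ on the gene's own strand up to its start site, and capitals mark the full CRE or its shorter core TGACG, searched on both strands (a full CRE holds the core on each strand, overlapping). Windows lie at chr1:144004150-144004399 (minus) for Rgs2, chr1:169747643-169747892 (minus) for Rgs4 and chr11:109650699-109650948 (plus) for Prkar1a.
Rgs2: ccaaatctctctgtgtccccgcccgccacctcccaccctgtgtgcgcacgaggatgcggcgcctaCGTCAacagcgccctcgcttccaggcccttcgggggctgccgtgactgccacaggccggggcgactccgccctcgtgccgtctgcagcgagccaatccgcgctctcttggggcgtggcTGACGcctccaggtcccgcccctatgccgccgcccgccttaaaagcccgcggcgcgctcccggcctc
Rgs4: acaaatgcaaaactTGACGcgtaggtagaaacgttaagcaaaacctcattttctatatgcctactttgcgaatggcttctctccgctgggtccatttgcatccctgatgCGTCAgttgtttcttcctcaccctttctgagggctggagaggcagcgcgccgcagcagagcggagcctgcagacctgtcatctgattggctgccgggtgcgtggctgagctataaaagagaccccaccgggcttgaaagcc
Prkar1a: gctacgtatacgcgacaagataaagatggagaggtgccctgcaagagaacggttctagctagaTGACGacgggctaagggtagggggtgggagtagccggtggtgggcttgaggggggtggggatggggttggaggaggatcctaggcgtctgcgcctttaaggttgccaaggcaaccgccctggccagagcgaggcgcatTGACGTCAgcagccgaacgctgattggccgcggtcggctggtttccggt
The full element was in 1 of 53 members (1.89%), against 3.401% of 7174 tested genes and 1.77% of 27025 genes with such a window. The core was in 15 of 53 members (28.3%), against 33.1% of tested genes and 19.8% of all. The members therefore held neither more often than the tested genes as a whole. A match in letters is a description and no evidence of binding.

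Among the 11 tested alpha subunits, 5 rose and 1 fell at 3 h, and 5 rose and 1 fell at 18 h. Over all tested genes 11.8% rose and 19.7% fell at 3 h, and 13.2% rose and 18.7% fell at 18 h. The same shares stand behind the counts of the other classes, which are small and were not tested as sets. Gna14, a Gq family subunit, measured 5.92 and 5.92 FPKM in Neo and 6.2 and 6.33 FPKM in water-treated EGFR cells. With EGF, Gna14 measured 8.72 and 9.12 FPKM after 3 h and 8.71 and 8.69 FPKM after 18 h. Every EGF library was above every water library at both times. For Gna14, the log2 fold change was 0.45 ± 0.04 SE at 3 h (adjusted p = 0.000489) and 0.42 ± 0.04 SE at 18 h (adjusted p = 0.000363). Gnaq, the widely expressed Gq subunit, rose from 29.5 ± 0.735 FPKM (SD, n = 2) to 34.4 ± 1.4 FPKM at 3 h (log2 fold change 0.21, adjusted p = 0.00681). It was at 35.5 ± 0.246 FPKM at 18 h (log2 fold change 0.26, adjusted p = 0.00233). Gnaz, a Gi family subunit, climbed in steps. It measured 9.22 and 8.64 FPKM in Neo and 9.48 and 9.397 FPKM in water-treated EGFR cells. With EGF, Gnaz measured 10.9 and 11.9 FPKM after 3 h and 15.5 and 15.01 FPKM after 18 h, with no overlap between water, 3 h and 18 h. For Gnaz, the log2 fold change was 0.25 ± 0.05 SE at 3 h (adjusted p = 0.0114) and 0.64 ± 0.05 SE at 18 h (adjusted p = 0.000165). Of the other Gi subunits, Gnai3 was raised at 3 h (log2 fold change 0.26, adjusted p = 0.00789). Gnao1 (log2 fold change 0.31, adjusted p = 0.0111) and Gnai2 (log2 fold change 0.13, adjusted p = 0.0216) were both raised at 18 h. Gna13 rose at 3 h (log2 fold change 0.12, adjusted p = 0.0301). Gna15 fell at 3 h (log2 fold change −0.25, adjusted p = 0.01003) and at 18 h was at 25.4 ± 0.182 FPKM against 25.6 ± 0.155 FPKM in water (SD, n = 2).

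Gnas, the gene of the stimulatory subunit, measured 1663 and 1552 FPKM in Neo and 1432 and 1439.6 FPKM in water-treated EGFR cells. Its row spans chr2:174284320-174346744, with RefSeq windows as far apart as 174284070-174284319 and 174329756-174330005. The values are not split by transcript, so a change in Gs alpha RNA cannot be told apart from one in other transcripts of the gene. With EGF, Gnas measured 1395 and 1419.8 FPKM after 3 h and 1263 and 1211 FPKM after 18 h. The 18 h libraries were the lowest of the 8 and lay apart from the water pair (log2 fold change −0.22 ± 0.05 SE, adjusted p = 0.0146), while 3 h gave no call (log2 fold change −0.03, 95% interval −0.14 to 0.09, adjusted p = 0.669). Opposite-strand transcripts such as Nespas cover 21.96% of the exonic bases of Gnas, and since no source used here gives the strand setting of the counting, their reads cannot be told apart. Gnai3 lost its 3 h call without water 2 (adjusted p = 0.0508). Gnaz lost its 3 h call without water 1 or 2 (adjusted p = 0.0552 to 0.0634). Gnaq lost its 3 h call without water 1 (adjusted p = 0.0531). Gna13 lost its 3 h call without water 1 or 2 or 3 h 1 and with a fit of the 2 groups alone (adjusted p = 0.0594 to 0.128). Gna15 lost its 3 h call without water 1 or 2 and with a common sum (adjusted p = 0.0517 to 0.0976). Gnao1 lost its 18 h call without water 1 or 18 h 1 (adjusted p = 0.0691 to 0.0701). Gnai2 lost its 18 h call without water 1 or 18 h 1 or 2 and with a common sum (adjusted p = 0.0815 to 0.154). Gnas lost its 18 h call without water 1 or 2 or 18 h 2 and with a common sum (adjusted p = 0.0696 to 0.0941).

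Beta and gamma subunits form the dimer that travels with the alpha subunit, and the gamma genes shifted in make-up at 18 h. Gng2 (chr14:19872559-19977627, minus strand) measured 48.6 and 44.7 FPKM in Neo and 43.8 and 46.9 FPKM in water-treated EGFR cells. With EGF, Gng2 measured 39.8 and 47.8 FPKM after 3 h and 74.5 and 76 FPKM after 18 h. Both 18 h libraries lay far above the other 6, with a mean 1.66 times that of water (log2 fold change 0.72 ± 0.08 SE, adjusted p = 0.000864), and 3 h gave no call (log2 fold change −0.05, 95% interval −0.25 to 0.14, adjusted p = 0.649). The rise from 3 to 18 h was the largest of any member (log2 fold change 0.77 ± 0.08 SE, adjusted p = 0.001096). Gng4 moved down, measuring 17.9 and 18.3 FPKM in Neo and 18.7 and 17.6 FPKM in water-treated EGFR cells. With EGF, Gng4 measured 15.8 and 15.3 FPKM after 3 h and 11.8 and 12.9 FPKM after 18 h, with no overlap between water, 3 h and 18 h. For Gng4, the log2 fold change was −0.21 ± 0.05 SE at 3 h (adjusted p = 0.0191) and −0.52 ± 0.05 SE at 18 h (adjusted p = 0.000359). Gng10 was lower at 18 h (log2 fold change −0.24, adjusted p = 0.00876), though 71.99% of its exonic bases are shared on the same strand with the annotated gene Gm20503. An opposite-strand transcript covers 20.4% of the exonic bases of Gng2. By FPKM, Gng2 made up 21.6% ± 1.25 of the gamma sum in water and 33.6% ± 0.231 at 18 h (SD, n = 2), and Gng5 31.9% ± 1.08 and 28.6% ± 0.815. Gng5, which has pseudogene copies, was not called at either time. For Gng5, the log2 fold change was 0.24 at 3 h (95% interval 0.01 to 0.47, adjusted p = 0.0975) and −0.07 at 18 h (95% interval −0.30 to 0.16, adjusted p = 0.626).

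Of the 3 beta genes, Gnb5, the partner of Rgs9-type RGS proteins, was lower at 3 h (log2 fold change −0.20, adjusted p = 0.0114; an opposite-strand transcript covers 7.96% of its exonic bases) and Gnb1 higher at 18 h (log2 fold change 0.17, adjusted p = 0.0328). Gnb2, the most abundant, measured 314 and 306 FPKM in Neo and 291 and 284 FPKM in water-treated EGFR cells. With EGF, Gnb2 measured 267 and 284 FPKM after 3 h and 304 and 333 FPKM after 18 h and was called at neither time. For Gnb2, the log2 fold change was −0.06 at 3 h (95% interval −0.19 to 0.06, adjusted p = 0.368) and 0.15 at 18 h (95% interval 0.02 to 0.27, adjusted p = 0.0683). Gng4 lost its 3 h call without water 1 or 3 h 1 or 2 and with a common sum (adjusted p = 0.0597 to 0.237). Gnb5 lost its 3 h call without water 1 or 3 h 1 and with a common sum (adjusted p = 0.0585 to 0.173). Gng10 lost its 18 h call without water 1 or 18 h 1 and with a common sum (adjusted p = 0.0584 to 0.114). Gnb1 lost its 18 h call without water 1 or 2 or 18 h 1 or 2 and with a common sum (adjusted p = 0.0693 to 0.152).

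The receptor kinases and arrestins, which desensitise receptors, gave no call at 3 h (0 of 4, and 0 at an unadjusted p below 0.05 in limma). At 18 h Adrbk2, the receptor kinase GRK3, was higher. It measured 5.11 and 5.35 FPKM in Neo and 5.65 and 5.48 FPKM in water-treated EGFR cells. With EGF, Adrbk2 measured 5.98 and 5.35 FPKM after 3 h and 7.07 and 7.08 FPKM after 18 h, both 18 h libraries being the highest of the 8 (log2 fold change 0.30 ± 0.06 SE, adjusted p = 0.00685). Arrb2, beta-arrestin 2, was lower at 18 h, at 18.3 ± 0.588 FPKM against 21.4 ± 0.382 FPKM in water (SD, n = 2; log2 fold change −0.22, adjusted p = 0.0257). Adrbk1, the more abundant of these kinases, was not called. For Adrbk1, the log2 fold change was −0.01 at 3 h (95% interval −0.15 to 0.13, adjusted p = 0.902) and 0.03 at 18 h (95% interval −0.12 to 0.17, adjusted p = 0.759). Arrb2 lost its 18 h call without water 1 or 2 or 18 h 1 or 2 (adjusted p = 0.0582 to 0.132).

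Of the 3 adenylyl cyclases, Adcy1 fell and Adcy9 rose at both times while the summed FPKM of the class stayed between 31.97 and 35.2 in all 8 libraries. Adcy1, a calcium- and calmodulin-stimulated cyclase, measured 8.75 and 8.91 FPKM in Neo and 10.1 and 9.69 FPKM in water-treated EGFR cells. With EGF, Adcy1 measured 8.36 and 9.03 FPKM after 3 h and 6.81 and 6.72 FPKM after 18 h. The 18 h libraries were the lowest of the 8. For Adcy1, the log2 fold change was −0.17 ± 0.05 SE at 3 h (adjusted p = 0.0314) and −0.49 ± 0.05 SE at 18 h (adjusted p = 0.000336). Adcy9 was higher at both times, at 21.3 ± 0.226 FPKM in water, 22.9 ± 0.494 FPKM at 3 h (log2 fold change 0.11, adjusted p = 0.0458) and 24.02 ± 0.418 FPKM at 18 h (log2 fold change 0.17, adjusted p = 0.00813; SD, n = 2). Adcy6, a calcium-inhibited cyclase with an opposite-strand transcript over 8.92% of its exonic bases, was called at neither time. For Adcy6, the log2 fold change was −0.15 at 3 h (95% interval −0.28 to −0.02, adjusted p = 0.0717) and 0.07 at 18 h (95% interval −0.06 to 0.20, adjusted p = 0.37). Adcy1 lost its 3 h call without water 1 or 2, 3 h 1 or 18 h 1 or 2 and with median-ratio scaling, a common sum, protein-coding genes only or a fit of the 2 groups alone (adjusted p = 0.0508 to 0.385). Adcy9 lost its 3 h call without Neo 1 or 2, water 1 or 2, 3 h 1 or 2 or 18 h 1 or 2 and with a common sum, a fit of the 2 groups alone, no variance trend or the replicate block (adjusted p = 0.0569 to 0.197). Adcy9 lost its 18 h call without water 2 or 18 h 2 (adjusted p = 0.0575 to 0.0586).

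Among the 10 tested genes with phosphodiesterase symbols, 1 rose and 2 fell at 3 h, and 4 rose and 3 fell at 18 h. Since the class was set by symbol, it also holds genes that do not break cAMP down, such as the carrier Pde6d. The summed FPKM of the 10 genes lay between 133.9 and 143 in all 8 libraries. Every EGF library (133.9 to 138.1) was below every Neo and water library (139.6 to 143), a difference that was not tested. Pde1c, a calcium- and calmodulin-activated enzyme that cleaves cAMP and cGMP (chr6:56069804-56569103, minus strand), measured 13.7 and 13.5 FPKM in Neo and 14.4 and 15.1 FPKM in water-treated EGFR cells. With EGF, Pde1c measured 12.4 and 12.9 FPKM after 3 h and 7.32 and 7.48 FPKM after 18 h. Its 18 h mean was 0.502 of the water mean (log2 fold change −0.90 ± 0.04 SE, adjusted p = 1.36e-05), the largest fall of any member, and it had already dropped at 3 h (log2 fold change −0.20 ± 0.04 SE, adjusted p = 0.00967). Pde11a, another enzyme of dual specificity, measured 8.13 and 7.28 FPKM in Neo and 7.901 and 7.72 FPKM in water-treated EGFR cells. With EGF, Pde11a measured 7.19 and 7.78 FPKM after 3 h and 5.22 and 5.07 FPKM after 18 h. The 3 h and water libraries overlapped (log2 fold change −0.06, 95% interval −0.20 to 0.09, adjusted p = 0.501), and both 18 h libraries lay below all the others (log2 fold change −0.52 ± 0.06 SE, adjusted p = 0.000847).

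Pde4b, a cAMP-specific enzyme of the rolipram-sensitive class (chr4:102087543-102607259, plus strand), moved the opposite way. It measured 7.65 and 8.53 FPKM in Neo and 7.91 and 7.53 FPKM in water-treated EGFR cells. With EGF, Pde4b measured 8.47 and 8.42 FPKM after 3 h and 12.8 and 12.2 FPKM after 18 h, and rose 1.62 times at 18 h (log2 fold change 0.63 ± 0.06 SE, adjusted p = 0.000243) with no call at 3 h (log2 fold change 0.12, 95% interval −0.01 to 0.25, adjusted p = 0.146). Pde2a, which cGMP stimulates, measured 3.17 and 3.32 FPKM in Neo and 3.49 and 3.42 FPKM in water-treated EGFR cells. With EGF, Pde2a measured 3.96 and 4.09 FPKM after 3 h and 5.93 and 5.27 FPKM after 18 h, and rose 1.62 times at 18 h as well (log2 fold change 0.57 ± 0.06 SE, adjusted p = 0.000624). On the same strand, 64.3% of its exonic bases are shared with Gm45837, the GENCODE M21 name of the second row of Pde2a. That row averaged 0.00139 FPKM over the 8 libraries. How shared reads were assigned to these rows is not known, so the value is uncertain. The cAMP-specific Pde8a was raised at both times. For Pde8a, the log2 fold change was 0.20 at 3 h (adjusted p = 0.0226) and 0.23 at 18 h (adjusted p = 0.0126). The cGMP-inhibited Pde3b was lowered at both. For Pde3b, the log2 fold change was −0.15 at 3 h (adjusted p = 0.0348) and −0.22 at 18 h (adjusted p = 0.00879). Pde6d rose at 18 h (log2 fold change 0.16, adjusted p = 0.0436). Pde7a, the most abundant, was not called. For Pde7a, the log2 fold change was −0.08 at 3 h (95% interval −0.21 to 0.05, adjusted p = 0.289) and −0.10 at 18 h (95% interval −0.23 to 0.03, adjusted p = 0.216). As shares of the summed FPKM, Pde1c went from 10.4% ± 0.441 in water to 5.503% ± 0.115 at 18 h and Pde4b from 5.43% ± 0.129 to 9.2996% ± 0.264 (SD, n = 2). Pde8a lost its 3 h call without water 2 or 3 h 1 and with a fit of the 2 groups alone (adjusted p = 0.0544 to 0.125). Pde3b lost its 3 h call without water 1, 3 h 1 or 2 or 18 h 1 or 2 and with median-ratio scaling, a common sum, protein-coding genes only, a fit of the 2 groups alone or the replicate block (adjusted p = 0.0555 to 0.556). Pde1c lost its 3 h call without water 2 or 3 h 1 and with a common sum (adjusted p = 0.0555 to 0.172). Pde8a lost its 18 h call without water 2 or 18 h 1 (adjusted p = 0.0725 to 0.0792). Pde6d lost its 18 h call without water 1 or 2, 3 h 1 or 2 or 18 h 1 or 2 and with no filter or the replicate block (adjusted p = 0.0562 to 0.224). Pde3b lost its 18 h call without water 1 or 18 h 1 and with a common sum (adjusted p = 0.0545 to 0.126).

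Among the 4 PKA regulatory genes, both type I genes rose at 18 h and 1 of the 2 type II genes fell. Prkar1a (chr11:109649405-109669656, plus strand), whose full CRE begins 49 bases before 1 of its RefSeq start sites in the sequence shown above, measured 251 and 266 FPKM in Neo and 247 and 232 FPKM in water-treated EGFR cells. With EGF, Prkar1a measured 268 and 272 FPKM after 3 h and 349 and 367 FPKM after 18 h. The 18 h mean was 1.49 times that of water (log2 fold change 0.58 ± 0.05 SE, adjusted p = 0.000191) with no overlap of any EGFR-line groups, and a smaller rise passed at 3 h (log2 fold change 0.17 ± 0.05 SE, adjusted p = 0.0328). The second type I subunit, Prkar1b, measured 5.14 and 4.87 FPKM in Neo and 4.604 and 3.98 FPKM in water-treated EGFR cells. With EGF, Prkar1b measured 4.81 and 4.89 FPKM after 3 h and 6.904 and 7.09 FPKM after 18 h, and rose 1.63 times at 18 h (log2 fold change 0.60 ± 0.06 SE, adjusted p = 0.0005698) with no call at 3 h (log2 fold change 0.15, 95% interval −0.00 to 0.29, adjusted p = 0.117). On the same strand, the annotated gene Gm15672 shares 8.95% of the exonic bases of Prkar1b. The type II subunit Prkar2b fell, from 38.8 ± 0.454 FPKM in water to 33.6 ± 0.462 FPKM at 3 h (log2 fold change −0.20, adjusted p = 0.0053) and 33.4 ± 0.199 FPKM at 18 h (log2 fold change −0.21, adjusted p = 0.00342; SD, n = 2). The other type II gene, Prkar2a, measured 12.6 and 12.3 FPKM in water and 14.03 and 14.1 FPKM at 3 h, with no overlap, but was called at neither time. For Prkar2a, the log2 fold change was 0.16 at 3 h (95% interval 0.02 to 0.31, adjusted p = 0.0753) and −0.07 at 18 h (95% interval −0.22 to 0.07, adjusted p = 0.384).

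The 2 catalytic genes were each called lower at 1 time. Prkaca was lower at 18 h, at 24.6 ± 0.209 FPKM against 27.3 ± 0.145 FPKM (SD, n = 2; log2 fold change −0.15, adjusted p = 0.0248), and not called at 3 h (log2 fold change 0.00, 95% interval −0.09 to 0.10, adjusted p = 0.936). Prkacb was lower at 3 h (log2 fold change −0.19, adjusted p = 0.0363) and not called at 18 h (log2 fold change 0.06, 95% interval −0.07 to 0.19, adjusted p = 0.452). Summed FPKM of the 4 regulatory genes over that of the 2 catalytic genes was 3.08 and 3.56 in Neo, 3.26 and 3.03 in water, 3.81 and 3.71 at 3 h and 4.21 and 4.52 at 18 h. Both 18 h libraries had the highest ratios and the water and Neo pairs overlapped. This ratio of RNA was not tested and does not measure protein. Prkar1a lost its 3 h call without water 1 or 2 or 3 h 1 or 2 and with a common sum (adjusted p = 0.0567 to 0.186). Prkar2b lost its 3 h call with a common sum (adjusted p = 0.134). Prkacb lost its 3 h call without water 1 or 2, 3 h 1 or 18 h 1 or 2 and with no filter, median-ratio scaling, a common sum or the replicate block (adjusted p = 0.0511 to 0.196). Prkaca lost its 18 h call without water 1 or 2 or 18 h 1 or 2 and with a common sum or protein-coding genes only (adjusted p = 0.0698 to 0.137).

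**Figure D2:**
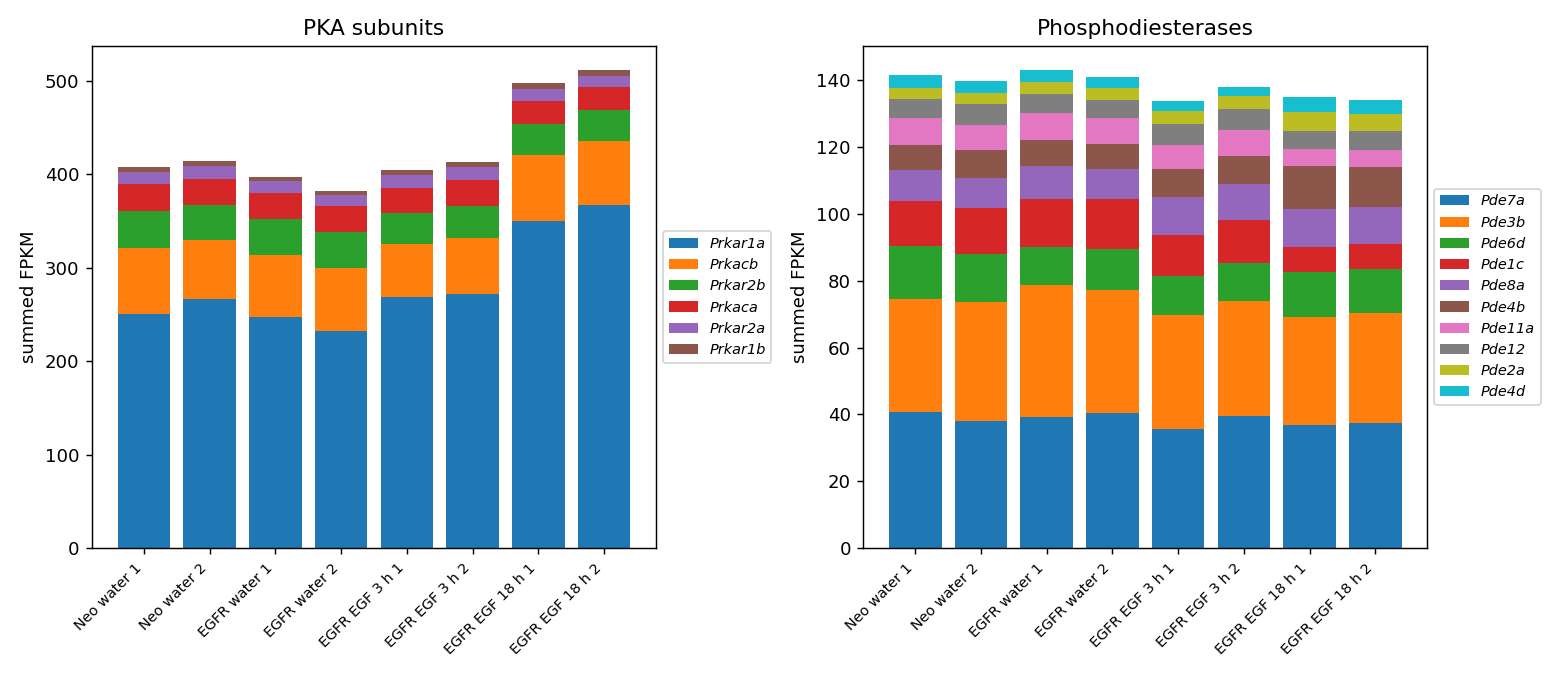
Summed FPKM (linear axis from 0) of the 6 PKA subunits and the 10 tested genes with phosphodiesterase symbols, Pde6d among them, in each of the 8 libraries. Bars are stacked by gene in the order of the legend from the bottom. The PKA bars reach 498 and 512 FPKM at 18 h against 382 to 414 FPKM elsewhere, mostly through Prkar1a. The phosphodiesterase bars lie between 133.9 and 143 FPKM, each EGF bar below each Neo and water bar, as Pde4b widens and Pde1c narrows.

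Anchoring proteins hold PKA at particular places in the cell. Of 7 AKAP genes, 2 rose and 1 fell at 3 h, and 1 rose at 18 h. Akap11 measured 13.03 and 13.4 FPKM in Neo and 12.3 and 11.8 FPKM in water-treated EGFR cells. With EGF, Akap11 measured 14.6 and 14.1 FPKM after 3 h and 13.2 and 13.6 FPKM after 18 h, and was above water in both EGF groups. For Akap11, the log2 fold change was 0.24 ± 0.04 SE at 3 h (adjusted p = 0.00525) and 0.14 ± 0.04 SE at 18 h (adjusted p = 0.0299). Akap13, another anchoring protein, measured 16.3 and 15.3 FPKM in Neo and 16.3 and 14.9 FPKM in water-treated EGFR cells. With EGF, Akap13 measured 11.7 and 13.1 FPKM after 3 h and 14.9 and 14.8 FPKM after 18 h. Its 3 h libraries were the lowest of the 8 (log2 fold change −0.31 ± 0.06 SE, adjusted p = 0.0107), and at 18 h it overlapped water (log2 fold change −0.07, 95% interval −0.21 to 0.08, adjusted p = 0.453). Akap8, a nuclear anchor, was higher at 3 h (log2 fold change 0.13, adjusted p = 0.0481), and Akap1 was not called. For Akap1, the log2 fold change was −0.04 at 3 h (95% interval −0.11 to 0.04, adjusted p = 0.389) and 0.00 at 18 h (95% interval −0.07 to 0.08, adjusted p = 0.955). None of the 4 Rapgef genes was called in limma (2 were higher at an unadjusted p below 0.05 at 3 h and 1 at 18 h). The widest interval among them was that of Rapgef4 (log2 fold change 0.28, 95% interval −0.02 to 0.57, adjusted p = 0.134 at 18 h), a cAMP-binding member of this family. Akap13 lost its 3 h call without water 1 or 3 h 1 (adjusted p = 0.0582 to 0.0646). Akap8 lost its 3 h call without water 1 or 2, 3 h 1 or 2 or 18 h 1 or 2 and with no filter, a common sum, a fit of the 2 groups alone, no variance trend or the replicate block (adjusted p = 0.0568 to 0.195). Akap11 lost its 18 h call without water 1 or 2 or 18 h 1 or 2 and with a common sum (adjusted p = 0.0663 to 0.163).

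In the CREB class, Atf1 and Creb1, which pair with each other on CREs, moved in opposite directions at 3 h. Atf1 measured 9.605 and 9.63 FPKM in Neo and 10.2 and 11.1 FPKM in water-treated EGFR cells. With EGF, Atf1 measured 14.1 and 14.3 FPKM after 3 h and 12.3 and 11.7 FPKM after 18 h. Both 3 h libraries were the highest of the 8 (log2 fold change 0.39 ± 0.05 SE, adjusted p = 0.00167), and the 18 h pair lay between them and water (log2 fold change 0.16 ± 0.05 SE, adjusted p = 0.0376). Creb1 measured 16.8 and 16.8 FPKM in Neo and 18.04 and 16.9 FPKM in water-treated EGFR cells. With EGF, Creb1 measured 15.2 and 15.2 FPKM after 3 h and 15.9 and 16.4 FPKM after 18 h, the 3 h pair being the lowest (log2 fold change −0.19 ± 0.04 SE, adjusted p = 0.013), with no call at 18 h (log2 fold change −0.11, 95% interval −0.20 to −0.01, adjusted p = 0.08102). Creb3 and the coactivator Crtc2 were not called. For Creb3, the log2 fold change was −0.01 at 3 h (95% interval −0.11 to 0.09, adjusted p = 0.901) and 0.11 at 18 h (95% interval 0.01 to 0.21, adjusted p = 0.0829). For Crtc2, the log2 fold change was 0.17 at 3 h (95% interval 0.03 to 0.30, adjusted p = 0.05902) and 0.07 at 18 h (95% interval −0.06 to 0.20, adjusted p = 0.378). A pseudogene copy, Atf1-ps, matches 34.3% of the Atf1 transcript at 95% identity or more, so reads could have been split between them. Creb1 lost its 3 h call without water 1 or 3 h 1 and with a common sum (adjusted p = 0.0585 to 0.262). Atf1 lost its 18 h call without Neo 1 or 2, water 1, 3 h 1 or 2 or 18 h 1 or 2 and with no filter, a common sum, a fit of the 2 groups alone or the replicate block (adjusted p = 0.0519 to 0.207).

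**Figure D3:**
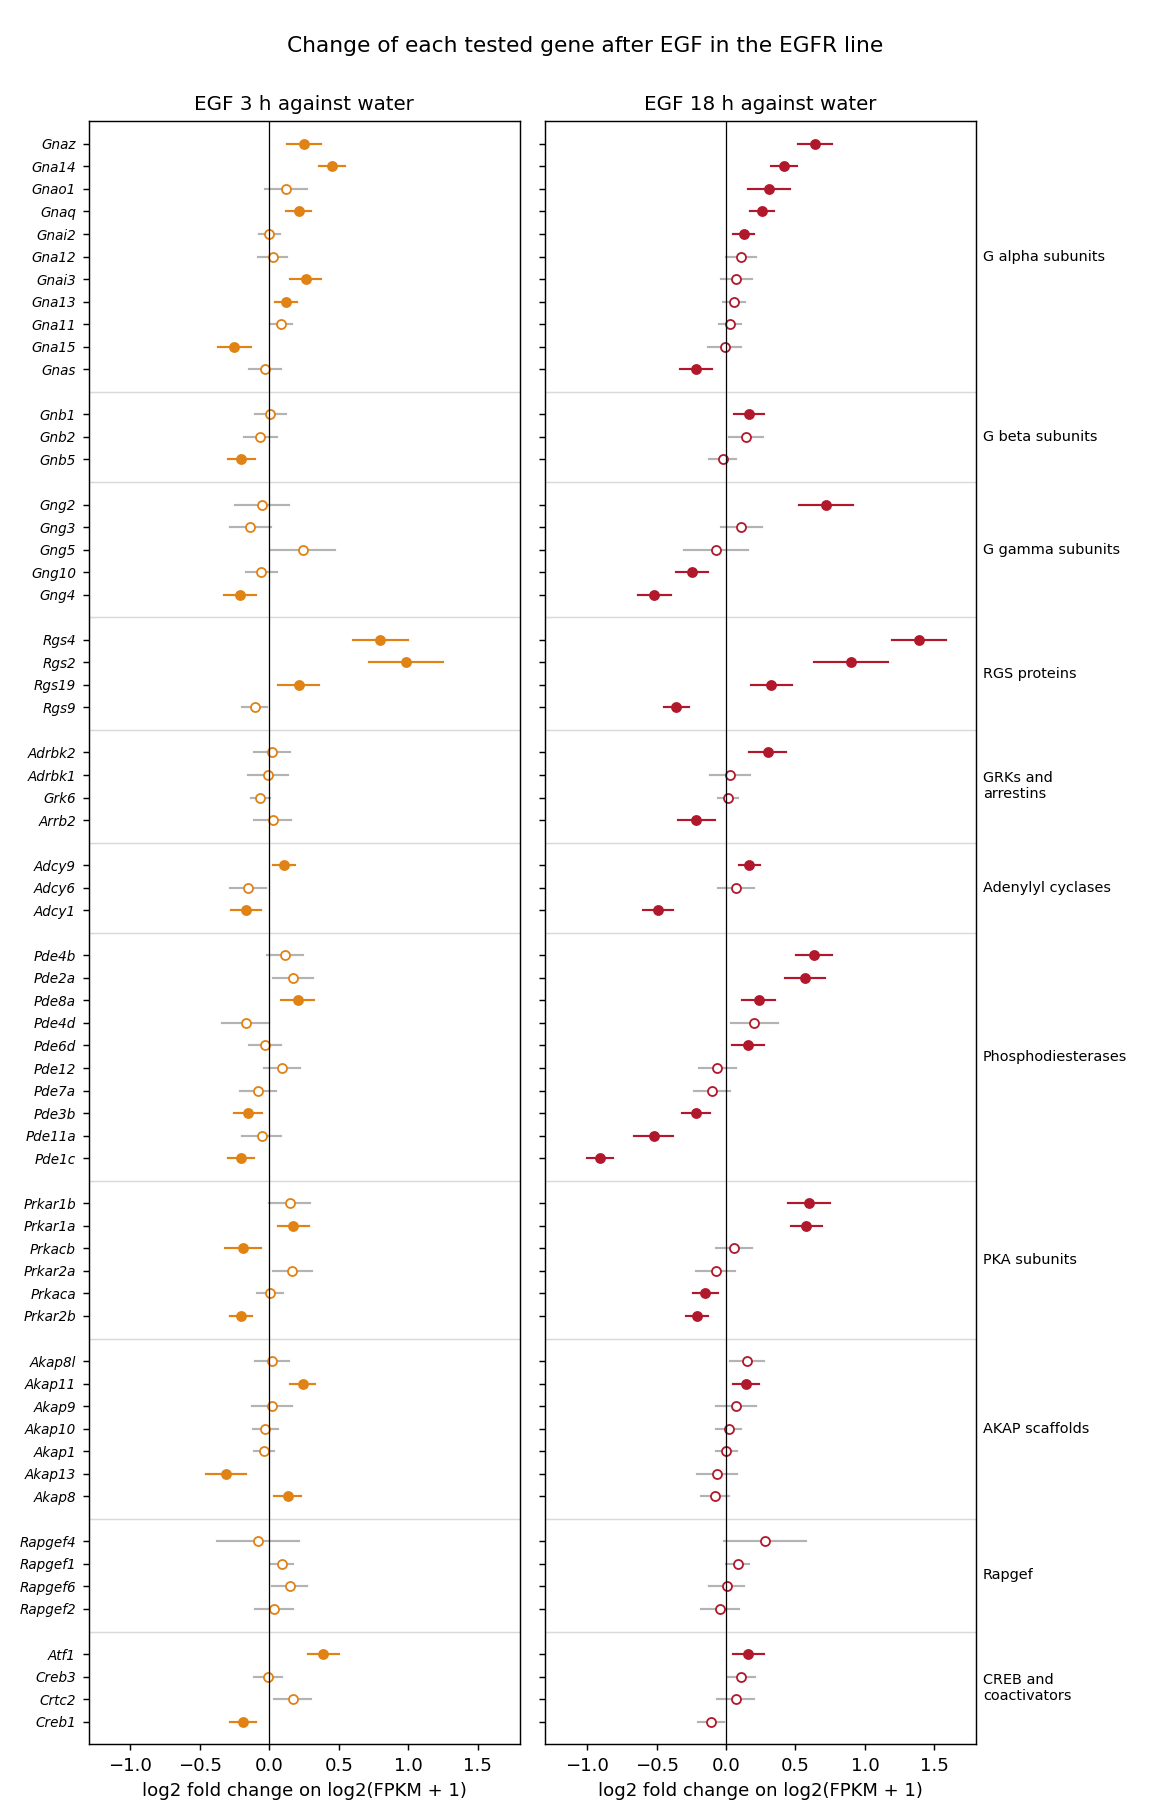
Change of each of the 61 tested genes on log2(FPKM + 1) after 3 h (left) and 18 h (right) of EGF against the same 2 water libraries, with 95% intervals, grouped by role. Filled points passed at adjusted p below 0.05 (24 at 3 h, 31 at 18 h) and open points did not. Rgs4 and Rgs2 lie farthest to the right, and at 18 h Pde1c lies farthest to the left.

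Comparing 18 h with 3 h of EGF directly, 19 members were higher (31.15%, against 17.7% of all tested genes) and 14 lower (22.95%, against 16.0% of all). The median log2 fold change was 0.05 over the members and 0.01 over all genes. With no water control at 18 h, a change in the effect of EGF and longer culture cannot be told apart in this comparison. With a common summed FPKM, 10 were higher and 11 lower, against 7.94% and 12.2% of all tested genes in that fit. Without 3 h 1, 18 h 1 or 18 h 2, fewer members and fewer of all tested genes were called. Under the common sum, the higher share of calls over all tested genes went from 52.5% to 39.3%. The calls that held in every alternative that tested the gene were the rises of Gng2 (0.77), Rgs4 (0.59), Pde4b (0.52), Prkar1b (0.45), Prkar1a (0.41), Pde2a (0.39) and Gnaz (0.39) and the falls of Pde1c (−0.70), Pde11a (−0.46), Adcy1 (−0.32), Gng4 (−0.31) and Rgs9 (−0.25), all as log2 fold changes. Rgs4 was not tested under the filter at 5 FPKM. Rgs2 (log2 fold change −0.08, 95% interval −0.35 to 0.18, adjusted p = 0.604) and Gna14 (log2 fold change −0.03, 95% interval −0.13 to 0.06, adjusted p = 0.572) did not pass. The 3 beta genes were all higher at 18 h than at 3 h (Gnb2 0.21, Gnb5 0.18 and Gnb1 0.16 in log2). Gnb2 lost its call without 3 h 1 or 18 h 2 and with a common sum or a fit of the 2 groups alone (adjusted p = 0.0595 to 0.132). Gnb5 lost its call without 3 h 1 or 18 h 2 and with a common sum (adjusted p = 0.0676 to 0.129). Gnb1 lost its call without Neo 1 or 2, water 1 or 2, 3 h 1 or 18 h 1 or 2 and with no filter, a common sum or a fit of the 2 groups alone (adjusted p = 0.05005 to 0.257).

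Receptors that drive the pathway were few in these tables. Of 17 listed Gs or Gq coupled receptors of pituitary cells 2 were tested. Vipr1, a receptor for vasoactive intestinal peptide, measured 0.706 and 0.7497 FPKM in Neo and 0.8702 and 0.936 FPKM in water-treated EGFR cells. With EGF, Vipr1 measured 1.904 and 2.095 FPKM after 3 h and 2.405 and 2.15 FPKM after 18 h, all above the water libraries. Vipr1 reached 1 FPKM in the 4 EGF libraries alone and so passed the filter through the groups where it is high, and its values are given as a description with no test. Of 14 listed Gi coupled receptors 4 were tested, of which 3 rose at 3 h, and 2 rose and 1 fell at 18 h (over all tested genes 11.8% rose and 19.7% fell at 3 h, and 13.2% and 18.7% at 18 h). Gabbr2, a subunit of the GABA-B receptor, measured 5.05 and 4.702 FPKM in Neo and 4.22 and 4.296 FPKM in water-treated EGFR cells. With EGF, Gabbr2 measured 4.797 and 4.86 FPKM after 3 h and 8.52 and 8.58 FPKM after 18 h (log2 fold change 0.86 ± 0.05 SE, adjusted p = 3.21e-05 at 18 h). The somatostatin receptors differed from each other. Sstr5 measured 16.5 and 16.6 FPKM in Neo and 14.3 and 14.5 FPKM in water-treated EGFR cells. With EGF, Sstr5 measured 13.7 and 13.95 FPKM after 3 h and 9.51 and 9.71 FPKM after 18 h, lowest in both 18 h libraries (log2 fold change −0.54 ± 0.03 SE, adjusted p = 4.76e-05). Sstr3 was raised at 3 h (log2 fold change 0.33, adjusted p = 0.00438) and not called at 18 h (log2 fold change −0.04, adjusted p = 0.612). Sstr2 was raised at 3 h (log2 fold change 0.22, adjusted p = 0.00788) and 18 h (log2 fold change 0.15, adjusted p = 0.0245). Gabbr2 lost its 3 h call without water 1 or 2, 3 h 1 or 2 or 18 h 1 or 2 and with a filter at 5 FPKM, a fit of the 2 groups alone or the replicate block (adjusted p up to 0.176). Sstr2 lost its 3 h call without water 1 (adjusted p = 0.0568). Sstr2 lost its 18 h call without water 1 or 2 or 18 h 1 or 2 and with a common sum (adjusted p up to 0.142).

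Downstream of cAMP, 28 genes known as targets of CREB or cAMP were listed and 15 were tested. At 3 h 4 of them rose and 3 fell (26.7% and 20%, against 11.8% and 19.7% of all tested genes), and at 18 h again 4 rose and 3 fell (against 13.2% and 18.7%). The share of falls was thus near that over all genes at both times. The median log2 fold changes were −0.05 and 0.01, against −0.04 and −0.03 over all tested genes. Vgf, a neuropeptide precursor, measured 36.5 and 33.01 FPKM in Neo and 28.6 and 29.4 FPKM in water-treated EGFR cells. With EGF, Vgf measured 56.6 and 57.96 FPKM after 3 h and 95.1 and 92.4 FPKM after 18 h, with no overlap between the EGFR-line groups. For Vgf, the log2 fold change was 0.96 ± 0.05 SE at 3 h (adjusted p = 5.08e-05) and 1.66 ± 0.05 SE at 18 h (adjusted p = 2.15e-06). Scg2, the granule protein secretogranin II, measured 132 and 131 FPKM in Neo and 123.3 and 119 FPKM in water-treated EGFR cells. With EGF, Scg2 measured 121 and 129.7 FPKM after 3 h and 265 and 263 FPKM after 18 h, the 3 h pair overlapping water and the 18 h pair far above it (log2 fold change 1.11 ± 0.04 SE, adjusted p = 4.73e-06). Nr4a2, an orphan nuclear receptor of the NR4A family, went down, measuring 17.6 and 18.4 FPKM in Neo and 18.9 and 18 FPKM in water-treated EGFR cells. With EGF, Nr4a2 measured 10.3 and 11.2 FPKM after 3 h and 13.1 and 11.7 FPKM after 18 h. For Nr4a2, the log2 fold change was −0.73 ± 0.06 SE at 3 h (adjusted p = 0.000425) and −0.54 ± 0.06 SE at 18 h (adjusted p = 0.000864). Gem, a small GTP-binding protein, was lower at 18 h (log2 fold change −0.31, adjusted p = 0.00685).

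Of 15 listed PKA inhibitors, PKA relatives and other cAMP effectors 7 were tested, of which 2 rose and 1 fell at each time (over all tested genes 11.8% rose and 19.7% fell at 3 h, and 13.2% and 18.7% at 18 h). Both rises at 3 h (Prkx and Pde4dip) and both at 18 h (Pkig and Pde4dip) were lost without water 1 and without water 2, and both 18 h rises also without 18 h 1 or 2. Pkib, an inhibitor that binds the catalytic subunit, measured 86.7 and 88.3 FPKM in Neo and 97.8 and 97.3 FPKM in water-treated EGFR cells. With EGF, Pkib measured 72.7 and 78.6 FPKM after 3 h and 71.96 and 68.7 FPKM after 18 h, lower in all 4 EGF libraries. For Pkib, the log2 fold change was −0.36 ± 0.04 SE at 3 h (adjusted p = 0.00157) and −0.47 ± 0.04 SE at 18 h (adjusted p = 0.000317). Prkx, a kinase related to PKA, rose at 3 h (log2 fold change 0.25, adjusted p = 0.0133). Of 12 salt-inducible kinases, coactivator partners and phosphatases 9 were tested, with 2 rises and 1 fall at each time, against the same shares over all genes. Both 3 h rises (Ppp3cb and Ppp3r1) were lost without water 2 or 3 h 1, and both 18 h rises (Crebbp and Sik3) without water 1, water 2 or 18 h 1. Sik1, the kinase that holds Crtc coactivators in the cytoplasm, was lower at 3 h (log2 fold change −0.31, adjusted p = 0.00131) and at 18 h (log2 fold change −0.15, adjusted p = 0.0175). The calcineurin subunit gene Ppp3cb rose at 3 h (log2 fold change 0.31, adjusted p = 0.0103). It measured 11.6 and 12.9 FPKM in Neo, 9.99 and 9.59 FPKM in water-treated EGFR cells and 12.9 and 11.8 FPKM at 3 h. Ppp3r1 measured 47.8 and 51.2, 43.0 and 41.3, and 50.9 and 47.9 FPKM in these groups. For both genes the 3 h libraries overlapped those of Neo. Prkx lost its 3 h call without water 1 or 2 or 3 h 1 (adjusted p up to 0.0764). Ppp3cb lost its 3 h call without water 2 or 3 h 1 (adjusted p up to 0.0634). Sik1 lost its 18 h call without water 1 or 2 or 18 h 1 or 2 and with a common sum or protein-coding genes only (adjusted p up to 0.207).

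Of 12 listed chaperones and modulators of G proteins 11 were tested, with 2 rises and 2 falls at 3 h and 3 rises and 1 fall at 18 h (over all tested genes 11.8% rose and 19.7% fell at 3 h, and 13.2% and 18.7% at 18 h). Without water 1, and likewise without 3 h 1, the 3 h falls of Gpsm2 and Nucb1 and the rise of Ric8b were lost, which left the rise of Ccdc88a. The fall of Nucb1 was lost under 13 of the 17 alternatives. At 18 h the fall of Gpsm1 was lost without water 2 or with a common sum, and the rise of Nucb1 without water 1 or 18 h 1 or 2. Nucb2, a calcium-binding protein, rose at 18 h (log2 fold change 0.41 ± 0.05 SE, adjusted p = 0.000764), and Ccdc88a, the G alpha modulator girdin, rose at 3 h (log2 fold change 0.28 ± 0.05 SE, adjusted p = 0.00594). Of 12 other effectors and regulators 7 were tested, with 3 rises and 1 fall at 3 h and 4 rises and 1 fall at 18 h, against the same shares over all genes. All 4 of the 3 h calls (Prex1, Plcb4 and Arhgef12 higher, Itpr3 lower) were lost without water 1, water 2, 3 h 1, 18 h 1 or 18 h 2. All 4 of the 18 h rises (Prex1, Plcb4, Arhgef11 and Arhgef12) were lost without water 2, 18 h 1 or 18 h 2. Itpr3, a calcium channel opened by the inositol trisphosphate that Gq signalling yields, measured 40.4 and 40.1 FPKM in Neo and 40.8 and 39.8 FPKM in water-treated EGFR cells. With EGF, Itpr3 measured 36.5 and 37.6 FPKM after 3 h and 26.3 and 26.1 FPKM after 18 h, lowest in both 18 h libraries (log2 fold change −0.60 ± 0.03 SE, adjusted p = 2.68e-05).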

How the data were processed

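Values for 8 libraries of AtT-20 cells were read from the deposited tables, which give FPKM per gene. Per the submitters' processing notes, Trimmomatic 0.22, TopHat2 2.0.8, HTSeq 0.5.4 and DESeq were used with mm10. No source used here names the program or strand setting behind the authors' FPKM values. Depth was estimated from low FPKM values in a preset window, each taken to be 1 fragment, and is rough. It limits the precision of genes near 1 FPKM.

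Genes at 1 FPKM or more in at least 2 libraries (10874 of 12193) were fitted as log2(FPKM + 1) with limma 3.58.1 (R 4.3.3, trended empirical Bayes, all 4 groups in 1 fit with 4 residual degrees of freedom), a script tested on simulated data. P-values were Benjamini-Hochberg adjusted over all genes tested. Levels, ratios and promoter matches were computed in Python 3.11.15 and transcript copies with minimap2 2.31. Alternatives were a pseudocount of 0.1, no filter, a filter at 5 FPKM, median-ratio scaling, a common summed FPKM, protein-coding genes only, the 2 groups alone, a fit with no variance trend, a block for the replicate number, and each library left out.

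The members and all gene lists were chosen with earlier results of these data known. Named were the called members of each comparison (up to the 25 largest), Gnas, Prkaca, Prkar1a, Creb1 and Crem, the most abundant member of each class, and up to 4 called genes per further list. Members beyond 25 are named where a class or list of calls is given in full, and some uncalled members (Gnb2, Prkar2a, Crtc2 and the like) were added after their values were seen. The pseudogene and overlap checks used GENCODE M21.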

Additional observations from a re-analysis of the deposited data

Results flagged for a closer look

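Expression differed between the 18 h and 3 h EGF groups for 33 of the 61 tested genes, by the direct limma comparison at adjusted p below 0.05. Over all tested genes 17.7% were higher and 16.0% lower in this comparison. Since both times were set against the same water libraries, the difference of the 2 fold changes equals the 18 h against 3 h contrast. No water library carries an 18 h label, so a change in the effect of EGF and longer culture cannot be told apart in it. In log2, the values of the 19 genes that were higher at 18 h were Gng2 0.77, Rgs4 0.59, Pde4b 0.52, Prkar1b 0.45, Prkar1a 0.41, Pde2a 0.39, Gnaz 0.39, Pde4d 0.38, Adrbk2 0.28, Prkacb 0.25, Gng3 0.25, Akap13 0.24, Gna15 0.24, Adcy6 0.22, Gnb2 0.21, Pde6d 0.19, Gnb5 0.18, Gnb1 0.16 and Gnai2 0.13. Those of the 14 genes that were lower at 18 h were Pde1c −0.70, Pde11a −0.46, Adcy1 −0.32, Gng5 −0.31, Gng4 −0.31, Rgs9 −0.25, Arrb2 −0.24, Prkar2a −0.24, Atf1 −0.23, Akap8 −0.21, Gng10 −0.19, Gnas −0.19, Gnai3 −0.19 and Prkaca −0.15.

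Of the 33 calls 21 were lost under at least 1 alternative. Among the rises these were Pde4d without 18 h 1 (adjusted p = 0.0539), Adrbk2 with a common sum (adjusted p = 0.0526), Prkacb without 3 h 1 or 18 h 1 (adjusted p = 0.0708 to 0.0751), Gng3 without 3 h 1 or 2 or 18 h 1 (adjusted p = 0.0636 to 0.121), Akap13 without 3 h 1 or 18 h 1 or 2 and with a common sum (adjusted p = 0.0668 to 0.108), Gna15 without 18 h 2 and with a common sum (adjusted p = 0.0539 to 0.0582), Adcy6 without 3 h 1 or 18 h 1 or 2 and with a common sum (adjusted p = 0.0668 to 0.115), Gnb2 without 3 h 1 or 18 h 2 and with a common sum or a fit of the 2 groups alone (adjusted p = 0.0595 to 0.132), Pde6d without 3 h 1 or 2 or 18 h 1 or 2 and with a common sum (adjusted p = 0.0748 to 0.1103), Gnb5 without 3 h 1 or 18 h 2 and with a common sum (adjusted p = 0.0676 to 0.129), Gnb1 without Neo 1 or 2, water 1 or 2, 3 h 1 or 18 h 1 or 2 and with no filter, a common sum or a fit of the 2 groups alone (adjusted p = 0.05005 to 0.257) and Gnai2 without 3 h 1 or 18 h 1 or 2 and with a common sum or a fit of the 2 groups alone (adjusted p = 0.0519 to 0.377). Among the falls they were Gng5 without water 1 or 2, 3 h 1 or 18 h 1 or 2 and with no filter, median-ratio scaling, a common sum, no variance trend or the replicate block (adjusted p = 0.0537 to 0.218), Arrb2 without 3 h 2 or 18 h 1 (adjusted p = 0.0733 to 0.0913), Prkar2a without 3 h 1 or 2 or 18 h 2 (adjusted p = 0.07396 to 0.116), Atf1 without 18 h 2 (adjusted p = 0.0675), Akap8 without 18 h 2 (adjusted p = 0.0542), Gng10 without 3 h 1 or 18 h 1 or 2 and with a common sum (adjusted p = 0.0554 to 0.1205), Gnas without water 1 or 2, 3 h 1 or 2 or 18 h 1 or 2 and with a fit of the 2 groups alone (adjusted p = 0.0531 to 0.1403), Gnai3 without 3 h 1 or 18 h 1 and with a common sum (adjusted p = 0.0721 to 0.131) and Prkaca without 3 h 1 or 2 or 18 h 1 or 2 (adjusted p = 0.0673 to 0.0997). Of the 33, Pde2a, Gng10 and Prkar1b share 5% or more of their exonic bases with an annotated gene on the same strand, and Gng3, Gnas, Gng2, Adcy6 and Gnb5 with 1 on the other strand. Their reads may be shared with those genes, and the part of this sharing in the values was not tested. Groups of 2 libraries are too small for a check of single outlying samples.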

How the results depend on the processing

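Of 128 gene results (90 of them calls), 16 changed direction under at least 1 of 17 alternatives, and none of these passed the threshold in either fit. Their log2 fold changes are given here with the main value in brackets. Akap1 between the lines (−0.00783) was 0.0747 with a common sum. Pde7a between the lines (0.0183) was −0.0316 to 0.0683 with a library left out. Prkaca between the lines (−0.0596) was 0.0223 with a common sum. Rapgef4 between the lines (0.00493) was −0.0104 with median-ratio scaling, −0.0128 with protein-coding genes only and −0.126 to 0.136 with a library left out. Adrbk1 at 3 h (−0.0113) was 0.0283 with median-ratio scaling, 0.0697 with a common sum, 0.0487 with protein-coding genes only and −0.0956 to 0.0731 with a library left out. Akap1 at 3 h (−0.0369) was 0.00231 with median-ratio scaling, 0.0433 with a common sum and 0.0225 with protein-coding genes only. Creb3 at 3 h (−0.00785) was 0.0316 with median-ratio scaling, 0.0728 with a common sum, 0.0519 with protein-coding genes only and −0.0614 to 0.0458 with a library left out. Gnas at 3 h (−0.0291) was 0.0112 with median-ratio scaling, 0.0532 with a common sum and 0.0319 with protein-coding genes only. Gnb2 at 3 h (−0.0641) was 0.01796 with a common sum. Prkaca at 3 h (0.004704) was −0.000525 to 0.00993 with a library left out. Rapgef4 at 3 h (−0.0793) was 0.000319 with a common sum and −0.256 to 0.0974 with a library left out. Adrbk1 at 18 h (0.02799) was −0.0564 to 0.112 with a library left out. Akap1 at 18 h (0.002602) was −0.00409 to 0.00929 with a library left out. Adrbk1 between 3 and 18 h (0.0393) was −0.00708 with a common sum. Akap1 between 3 and 18 h (0.0395) was −0.00638 with a common sum. Pde7a between 3 and 18 h (−0.0162) was −0.0899 to 0.0576 with a library left out. With protein-coding genes only, 24.3% of all tested genes were called higher at 3 h. With a common sum, 4.05% were lower at 3 h, 6.49% lower at 18 h and 7.94% higher for 18 h against 3 h. Counts of called members moved by over 1.5 times as follows, and the calls over all tested genes moved with these settings as well. Between the lines (1 higher and 1 lower), 0 were higher with no filter and with the replicate block, 3 were lower with protein-coding genes only and 0 with the 2 groups alone, and leaving out a library gave 0 to 1 in each direction. In limma, 10 were higher and 6 lower there at an unadjusted p below 0.05, a level at which the share over all tested genes was not computed. At 3 h (14 and 10), 23 were higher with protein-coding genes only and 1 was lower with a common sum, and leaving out a library gave 6 to 14 higher and 2 to 10 lower. At 18 h (20 and 11), 7 were lower with a common sum, and leaving out a library gave 13 to 20 higher and 6 to 11 lower. For 18 h against 3 h (19 and 14), 10 were higher with a common sum, and leaving out a library gave 11 to 19 higher and 7 to 14 lower. A group left with 1 library was assumed to vary like the others. Why these counts moved was not tested, except that leaving out a library leaves fewer samples. The labels number replicates 1 and 2 in each group. Deviations of same-numbered libraries correlated from −0.172 to 0.31 over 6 pairs of groups, so the numbers were not taken to pair them. With the replicate block, 0 members were higher and 1 lower between the lines, 12 and 8 at 3 h, 19 and 11 at 18 h and 19 and 13 for 18 h against 3 h.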
